A study of Mus musculus with 12 samples.

Results

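The 9 genes described here are Gab1, Tex13b, Nkx6-3, Ildr1, Ttyh3, Cux1, Mmp11, Tbx15 and Spire1. They were picked because expression values read by their probe sets were lower in the arrays labelled RARaKO than in the WT arrays, both with all-trans retinoic acid (atRA) and with its ethanol vehicle (EtOH). The platform annotation gave these 9 symbols to 25 of the 37600 probe sets tested, which name 16509 genes by a single symbol. No filter on low values was applied, so all 25 entered every comparison. The genotype differences chose the genes and are therefore given as a description, with no test. The response to atRA within a genotype was not a criterion of the choice and was tested, on the same arrays. The difference between the responses is built from the 2 genotype differences, so it too is only described. Each response within a genotype is a part of that difference, so the choice may favour small responses as well.

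The cells were F9, a mouse teratocarcinoma line that resembles cells of the early embryo and differentiates when given retinoic acid. The arrays were Affymetrix mouse expression arrays, 12 in all. The 4 groups were RARaKO cells with atRA at 1 µM, RARaKO cells with EtOH at 0.1%, WT cells with atRA and WT cells with EtOH. Each group held 3 arrays, numbered as sets 2, 3 and 4. Every group, WT EtOH included, also received cycloheximide (1 µg/ml), which blocks protein synthesis, from 30 min before the treatment of 7.5 h. RARaKO is the labels' name for F9 cells in which the retinoic acid receptor alpha gene, Rara, was knocked out, and the sources used here do not say how many clones it stands for. Expression values in the text are on a log scale whose base is taken as 2, and each is set against the 12-array median of its own probe set. A value of 1 above another of the same probe set therefore stands for a doubling, and levels of different genes cannot be compared. Such values show that a transcript was lower in a group, and cannot show that it was absent. Wherever 3 values of a group follow each other they are sets 2, 3 and 4.

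Retinoic acid acts through nuclear receptors that sit on DNA as dimers with a retinoid X receptor, and the ligand turns a bound receptor from a repressor into an activator of nearby genes. With protein synthesis blocked, changes that need newly made proteins are held back, so a response to atRA seen in cycloheximide is closer to the receptor. The cells differed in genotype before cycloheximide was added. It therefore does not show whether a genotype difference is direct. The 9 genes belong to several cell functions. Gab1 is a docking protein for receptor tyrosine kinases, Nkx6-3, Tbx15 and Cux1 encode transcription factors, Ildr1, Ttyh3 and Mmp11 encode surface or secreted proteins, Spire1 nucleates actin filaments, and Tex13b is an X-linked gene of a testis-expressed family.

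The label was checked first on Rara itself, read by the single probe set 1450180_a_at. It read 0.26, 0.05 and 0.29 in RARaKO atRA, 0.29, 0.32 and 0.30 in RARaKO EtOH, -0.26, -0.05 and -0.17 in WT atRA, and -0.55, -0.50 and -0.76 in WT EtOH. All 6 arrays labelled RARaKO lay above all 6 WT arrays, against the direction that the label would give. The difference was 0.90 ± 0.09 in EtOH (± is the standard error of the fit throughout; limma, adjusted p = 0.00015) and 0.36 ± 0.09 in atRA (adjusted p = 0.0488, from 0.0242 to 0.154 over the other settings). The call in atRA was lost without any of the RARaKO EtOH arrays, RARaKO atRA set 2 or 4, WT EtOH set 2 or 3, or WT atRA set 2 or 4 (0.0536 to 0.154). It was also lost with robust eBayes (0.0505) and with only the 6 arrays compared (0.12), and 7 of 18 alternatives kept it. With atRA Rara rose in WT (0.45 ± 0.09, limma, adjusted p = 0.046), a call that 4 of 18 alternatives kept. In RARaKO its response was not called (-0.10 ± 0.09, adjusted p = 0.839). Whether this probe set lies in a deleted stretch is not given in the sources used here, so it does not check the knockout, and every direction below refers to the arrays as labelled. All 12 measured F9 stem cell markers, Pou5f1, Nanog and Sox2 among them, had a probe set at 8 or more on every array. The level is a coarse one, recovered from the rounding of the values. This class held 33.9% of all probe sets, whereas markers were counted as genes by their highest probe set, so the 2 are in unlike units. Of the endoderm markers 12 of 14 were in this class too, and of the fibroblast markers 0 of 9. Neither stem cell, endoderm nor fibroblast markers held a call between the genotypes (limma, smallest adjusted p = 0.056 over the 3 lists and both treatments), where 3.12% of all probe sets were called in atRA and 3.01% in EtOH. At an unadjusted p of 0.05, which 17.9% of all probe sets passed in atRA and 15.3% in EtOH, 5 of 20 stem cell marker probe sets passed in each treatment, 1 and 2 of 29 endoderm and 1 and 1 of 12 fibroblast marker probe sets. The arrays measured bulk RNA, in which fewer cells of a kind and less RNA per cell cannot be told apart.

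Across the 25 probe sets, 13 had all 6 RARaKO arrays below all 6 WT arrays, where 3.32% of all probe sets did, and these 13 covered all 9 genes. Another 3 had all 6 RARaKO arrays above all 6 WT arrays, where 2.87% of all probe sets did. Cux1 held 2 of these and Spire1 held 1. In the remaining 9 the genotypes overlapped. The genotype difference ranged from -2.42 to 0.48 in atRA and from -2.30 to 0.55 in EtOH, with medians of -0.91 and -0.68 against 0.00 and -0.01 over all probe sets. These counts follow from how the genes were chosen. The mean difference between 5′ and 3′ probe sets of 4 control transcripts, a measure of RNA integrity, was 0.073, -0.023 and 0.132 in RARaKO EtOH and -0.09, -0.123 and -0.084 in WT EtOH, without overlap. In atRA it was 0.061, 0.001 and 0.09 in RARaKO and 0.018, -0.025 and -0.013 in WT, with overlap. Its part in the genotype differences was not tested.

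**Figure D1:**
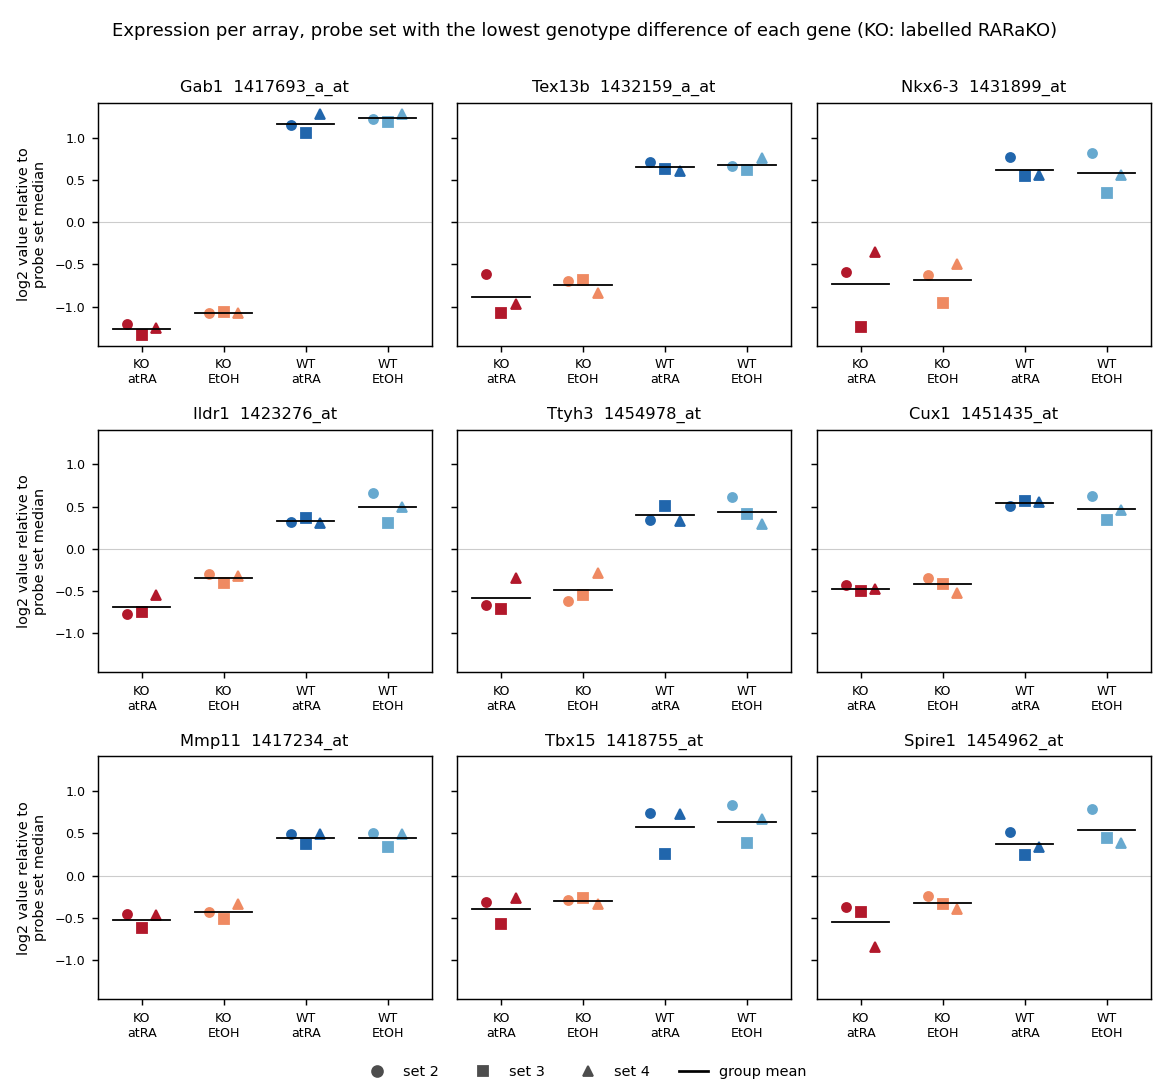
Expression per array for 1 probe set of each gene, the one with the lowest genotype difference; the y axis is log2 relative to the probe set's median over 12 arrays, points are arrays (shape gives the set) and lines are group means. In each panel the 6 RARaKO arrays lie below the 6 WT arrays, with the widest gap for Gab1.

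Gab1 had the lowest values relative to WT, by all 3 of its probe sets. Its protein is phosphorylated by receptors such as Met and Egfr and by fibroblast growth factor receptors, and then recruits the phosphatase encoded by Ptpn11 and phosphatidylinositol 3-kinase. Probe set 1417694_at read -1.08, -1.29 and -1.12 in RARaKO atRA, -1.09, -1.10 and -1.02 in RARaKO EtOH, 1.17, 1.02 and 1.16 in WT atRA, and 1.26, 1.16 and 1.24 in WT EtOH. The genotypes were separated by a gap far wider than the spread within any group. In atRA 1417694_at was 4.86-fold lower in RARaKO (-2.28 ± 0.07). For 1417693_a_at the differences were -2.42 ± 0.07 in atRA and -2.30 ± 0.07 in EtOH. For 1448814_at, the dimmest of them by level class, they were -1.87 ± 0.11 and -1.93 ± 0.11. All 3 probe sets were designed on the same transcript record, so they are not independent readings of the gene.

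Tex13b followed, with 2 probe sets that gave close values although they were designed on different records. Probe set 1450555_at read -0.80, -0.74 and -0.80 in RARaKO atRA, -0.58, -0.74 and -0.85 in RARaKO EtOH, 0.69, 0.79 and 0.81 in WT atRA, and 0.62, 0.78 and 0.58 in WT EtOH. Probe set 1432159_a_at read -0.61, -1.08 and -0.97 in RARaKO atRA, -0.70, -0.69 and -0.84 in RARaKO EtOH, 0.71, 0.63 and 0.61 in WT atRA, and 0.66, 0.62 and 0.76 in WT EtOH. Neither showed overlap between the genotypes. The genotype difference in atRA was -1.54 for both, with standard errors of 0.08 and 0.10, and in EtOH it was -1.39 ± 0.08 and -1.43 ± 0.10. Gab1 and Tex13b were the only ones of the 9 genes with a non-overlapping lower probe set at a level of 8 or more on every array. These were 2 of the 3 probe sets of Gab1 and both of Tex13b.

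The promoters of Gab1 and Tex13b are shown because these genes had the lowest values relative to WT and because receptor motifs were searched for in such windows. The sequences are RefSeq's on GRCm38.p6, from 250 bases before to 50 after the gene's start, 5′ to 3′ on the gene's own minus strand, with CpG dinucleotides in capitals. Gab1 lies at chr8:80880430-80880729 and Tex13b at chrX:140813384-140813683.
Gab1: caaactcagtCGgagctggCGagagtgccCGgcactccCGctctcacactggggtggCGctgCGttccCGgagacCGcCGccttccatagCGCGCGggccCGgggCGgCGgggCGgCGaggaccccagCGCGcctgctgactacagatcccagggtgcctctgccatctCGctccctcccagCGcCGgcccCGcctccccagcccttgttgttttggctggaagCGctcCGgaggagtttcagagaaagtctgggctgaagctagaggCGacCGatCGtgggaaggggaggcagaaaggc
Tex13b: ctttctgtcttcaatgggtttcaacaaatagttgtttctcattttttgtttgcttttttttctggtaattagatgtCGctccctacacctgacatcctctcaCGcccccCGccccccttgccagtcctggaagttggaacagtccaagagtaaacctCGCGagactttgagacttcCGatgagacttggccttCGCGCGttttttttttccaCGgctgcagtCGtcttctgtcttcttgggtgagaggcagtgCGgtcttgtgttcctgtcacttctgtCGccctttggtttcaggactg

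The printed Gab1 window held 28 CpG dinucleotides and the Tex13b window 13. The promoter table held 7 windows for 6 of the genes (Gab1 with 2, Tex13b, Ildr1, Ttyh3, Cux1 and Mmp11), while Nkx6-3, Tbx15 and Spire1 were not in it. The receptor motifs AGGTCA and AGTTCA were searched on both strands, and none of the 7 windows held either, against 27.7% of all 32851 promoter windows. Direct repeats of these motifs with 1, 2 or 5 bases between them were in none of the 7 and in at most 0.0822% of all windows. GC content of the windows lay between 49% and 70.7%, against a median of 52.7% over all promoters. The observed over expected CpG ratio lay between 0.57 and 0.93, above the median of 0.384 over all promoters in every window. The search covered these letters in these windows and nothing beyond.

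Among the 3 transcription factors, Nkx6-3 and Tbx15 were lower in RARaKO by their main probe sets. Nkx6-3, a homeodomain factor known from stomach and hindbrain, is read by 1431899_at alone. It read -0.59, -1.24 and -0.35 in RARaKO atRA, -0.63, -0.96 and -0.50 in RARaKO EtOH, 0.77, 0.54 and 0.56 in WT atRA, and 0.82, 0.35 and 0.56 in WT EtOH. The genotypes did not overlap, and set 3 was the lowest array of all 4 groups. The difference was -1.35 ± 0.20 in atRA and -1.27 ± 0.20 in EtOH, and its standard error was the widest among the 25.

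Tbx15 encodes a T-box factor known for its part in skeletal and skin patterning. Probe set 1418755_at read -0.31, -0.57 and -0.27 in RARaKO atRA, -0.29, -0.26 and -0.34 in RARaKO EtOH, 0.74, 0.26 and 0.73 in WT atRA, and 0.83, 0.39 and 0.67 in WT EtOH. The genotypes did not overlap, while set 3 of WT lay well below the other WT sets in both treatments. The difference was -0.96 ± 0.14 in atRA and -0.93 ± 0.14 in EtOH. The gene's other probe set, 1422195_s_at, designed on the same record, gave -0.39 ± 0.10 in atRA and -0.26 ± 0.10 in EtOH, and in EtOH its genotypes overlapped.

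Cux1 split by probe set, in opposite directions. The gene encodes a homeodomain factor with Cut repeats and, by alternative splicing, a Golgi protein, so probe sets along it may read different transcripts. Of its 9 probe sets, 2 had all RARaKO arrays lower, 2 had all RARaKO arrays higher and 5 overlapped. Probe set 1451435_at read -0.43, -0.50 and -0.48 in RARaKO atRA, -0.34, -0.42 and -0.52 in RARaKO EtOH, 0.51, 0.56 and 0.55 in WT atRA, and 0.62, 0.34 and 0.46 in WT EtOH. Probe set 1424667_a_at differed by -0.96 ± 0.10 in atRA and -0.68 ± 0.10 in EtOH. Those 2 were designed on the same record, yet 1424668_a_at, also from it, overlapped between the genotypes over the 12 arrays and differed by -0.27 ± 0.09 in atRA and -0.08 ± 0.09 in EtOH.

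In the other direction, Cux1 probe set 1425612_at read 0.16, 0.23 and 0.14 in RARaKO atRA, 0.34, 0.29 and 0.16 in RARaKO EtOH, -0.24, -0.51 and -0.14 in WT atRA, and -0.15, -0.16 and -0.56 in WT EtOH. Every RARaKO array was above every WT array. The difference was 0.48 ± 0.12 in atRA and 0.55 ± 0.12 in EtOH. Probe set 1425611_a_at, designed on the same record as 1425612_at, gave 0.31 ± 0.10 and 0.38 ± 0.10. The 5 overlapping probe sets lay between -0.27 and 0.25 in atRA and between -0.23 and 0.42 in EtOH. Averaged over its 9 probe sets Cux1 differed by -0.155 in atRA and -0.067 in EtOH. The files do not say which transcript each probe set reads.

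**Figure D2:**
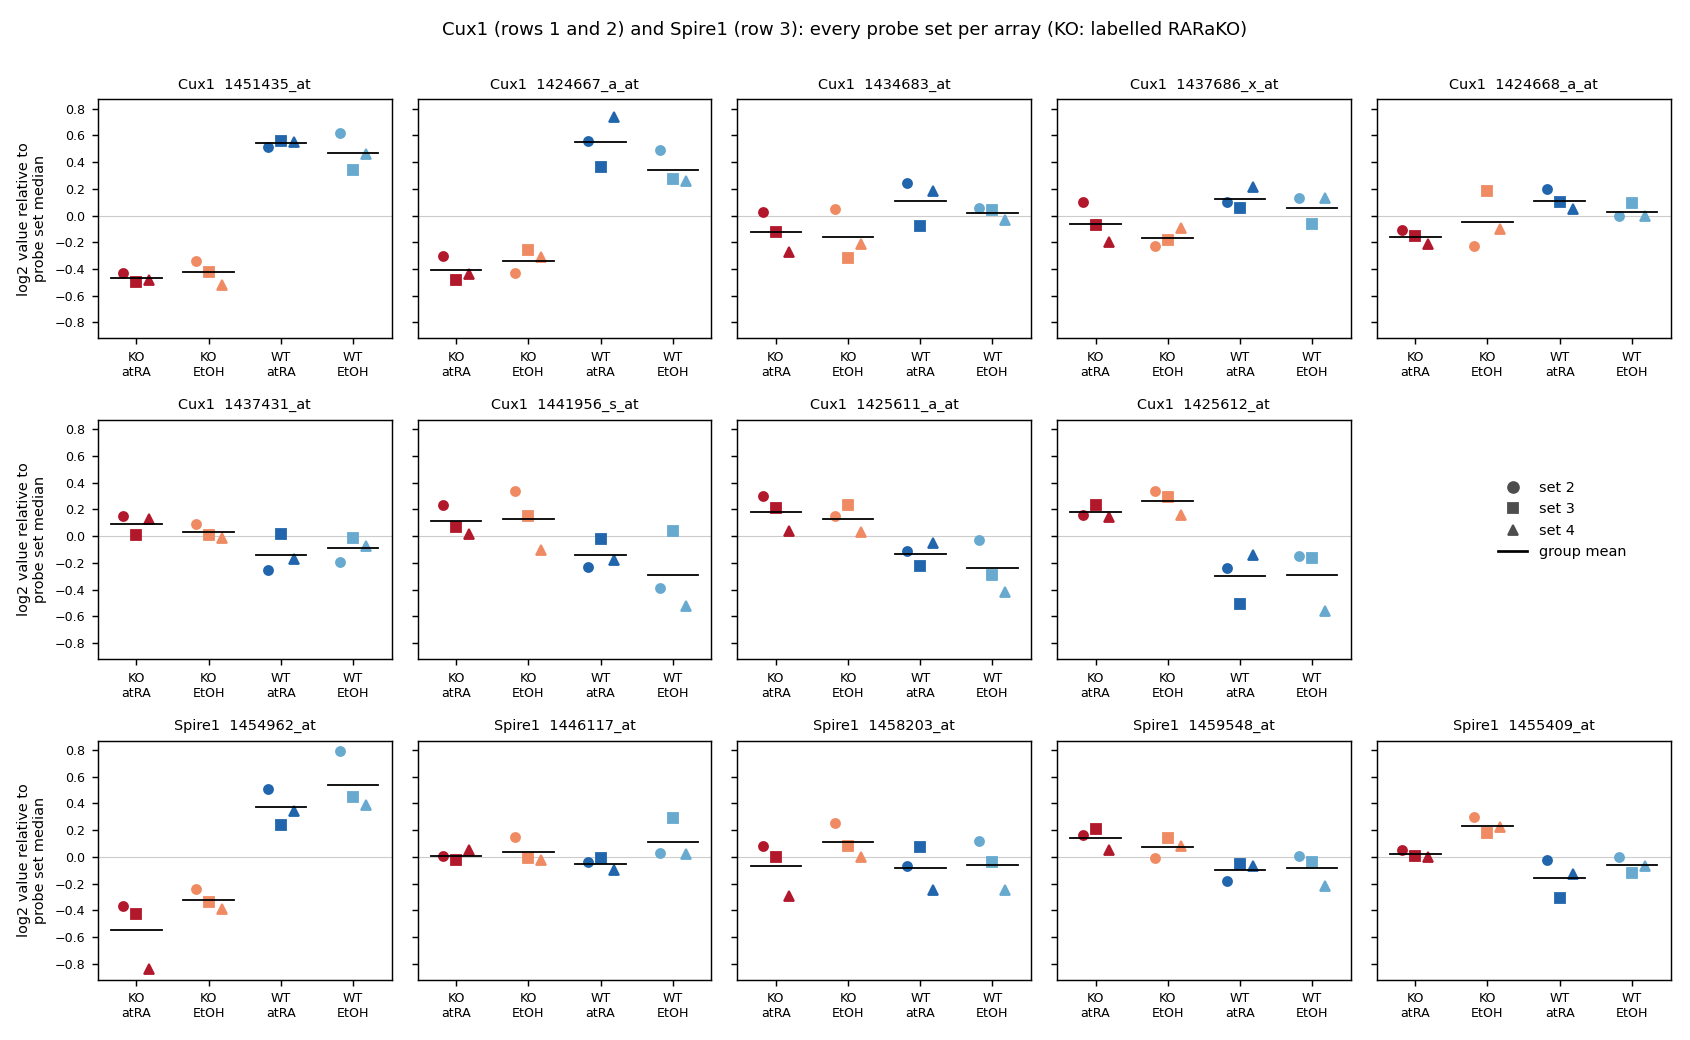
Every probe set of Cux1 (9 panels) and Spire1 (5 panels) per array; the y axis is log2 relative to the probe set's median, points are arrays by set and lines are group means. In this plot 2 Cux1 panels and 1 Spire1 panel show RARaKO below WT, 2 Cux1 panels and 1 Spire1 panel show RARaKO above WT, and in the others the genotypes overlap.

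Spire1 was read by 5 probe sets and only 1 of them had all RARaKO arrays below WT. Its protein starts new actin filaments together with formins and is known for a role in vesicle transport on actin tracks. Probe set 1454962_at read -0.37, -0.43 and -0.84 in RARaKO atRA, -0.24, -0.34 and -0.39 in RARaKO EtOH, 0.51, 0.24 and 0.34 in WT atRA, and 0.79, 0.45 and 0.39 in WT EtOH. The difference was -0.91 ± 0.13 in atRA and -0.87 ± 0.13 in EtOH. The brightest of the 5 by level class, 1455409_at, read 0.05, 0.01 and 0.00 in RARaKO atRA, 0.30, 0.18 and 0.22 in RARaKO EtOH, -0.02, -0.31 and -0.13 in WT atRA, and 0.00, -0.12 and -0.07 in WT EtOH. Its RARaKO arrays were all above its WT arrays, with differences of 0.18 ± 0.08 and 0.29 ± 0.08. The other 3 probe sets overlapped between the genotypes, and over all 5 the gene differed by -0.084 in atRA and -0.065 in EtOH.

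Among the surface and secreted proteins, Ildr1, Ttyh3 and Mmp11 each have a single probe set, and each was lower in RARaKO, with differences from -1.02 to -0.83. Ildr1 encodes a receptor of tricellular junctions, where the corners of epithelial cells meet. Probe set 1423276_at read -0.77, -0.75 and -0.55 in RARaKO atRA, -0.30, -0.41 and -0.32 in RARaKO EtOH, 0.32, 0.36 and 0.31 in WT atRA, and 0.66, 0.30 and 0.50 in WT EtOH. The genotypes did not overlap, and among the RARaKO arrays all 3 with atRA lay below all 3 with EtOH. The same order held for Gab1 1417693_a_at and Spire1 1455409_at. How many of all probe sets had this order was not counted, so nothing is read from it. Ildr1 was 2.03-fold lower in RARaKO in atRA (-1.02 ± 0.09) and 1.78-fold lower in EtOH (-0.83 ± 0.09).

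Ttyh3, a multi-pass membrane protein of the tweety family, is read by 1454978_at. It read -0.67, -0.71 and -0.35 in RARaKO atRA, -0.62, -0.55 and -0.29 in RARaKO EtOH, 0.34, 0.51 and 0.33 in WT atRA, and 0.61, 0.41 and 0.29 in WT EtOH. Set 4 was the highest of both RARaKO groups and the lowest of both WT groups, and the genotypes did not overlap. The difference was -0.97 ± 0.12 in atRA and -0.92 ± 0.12 in EtOH. Mmp11, a secreted metalloproteinase also called stromelysin-3, is read by 1417234_at. It read -0.46, -0.62 and -0.47 in RARaKO atRA, -0.43, -0.51 and -0.34 in RARaKO EtOH, 0.49, 0.37 and 0.49 in WT atRA, and 0.50, 0.34 and 0.49 in WT EtOH. Set 3 was its lowest array in every group. The difference was -0.97 ± 0.08 in atRA and -0.87 ± 0.08 in EtOH.

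**Figure D3:**
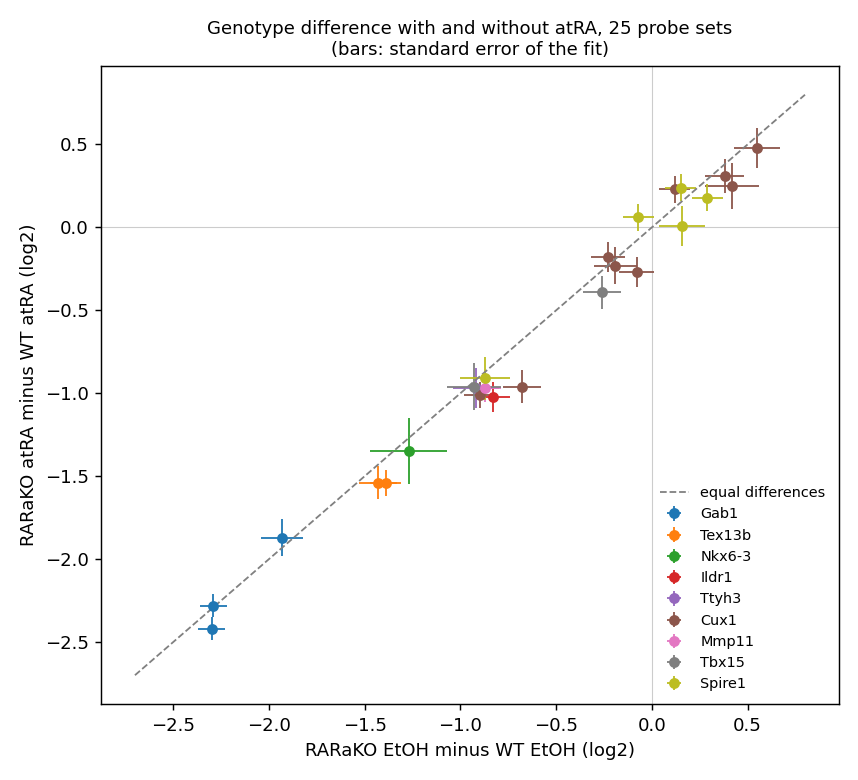
Genotype difference (RARaKO minus WT, log2) of the 25 probe sets with EtOH on the x axis and with atRA on the y axis; bars are standard errors of the fit and the dashed line marks equal differences. Gab1, Tex13b and Nkx6-3 lie lowest, and the 2 probe sets of Tex13b lie a little below the line.

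Whether atRA altered these genes was then tested in each genotype, and none of the 25 probe sets was called. Since the choice of the genes may favour small responses, the lack of calls cannot show that atRA left them unchanged. In RARaKO the responses ranged from -0.35 to 0.11 with a smallest adjusted p of 0.223 (limma over all probe sets, of which 0.263% were called), and 3 passed an unadjusted p of 0.05, which 8.2% of all probe sets passed. In WT they ranged from -0.18 to 0.21 with a smallest adjusted p of 0.708 (0.569% of all probe sets called), and 0 passed an unadjusted p of 0.05, against 7.27% of all. The 95% confidence intervals of the 25 reached no lower than -0.545 and no higher than 0.389 in RARaKO, and lay between -0.461 and 0.469 in WT.

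The response in RARaKO minus the response in WT equals the genotype difference in atRA minus that in EtOH, and choosing genes that were low in both favours small values of it, so nothing is read from it. It ranged from -0.28 for Cux1 1424667_a_at to 0.13, and for Gab1 1417694_at it was 0.01. Of all probe sets 0% were called in this comparison (limma), and 1168 passed an unadjusted p of 0.05.

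Averaged over both genotypes, the response was called for 0 of 25 probe sets, where 1.6% of all probe sets were called, and 4 passed an unadjusted p of 0.05, against 11.3% of all. Ildr1 had the smallest adjusted p. Its mean response was -0.25 ± 0.06 (limma, adjusted p = 0.0795), made of -0.35 ± 0.09 in RARaKO (adjusted p = 0.223) and -0.16 ± 0.09 in WT (adjusted p = 0.795). Without set 3 of WT EtOH the mean response of Ildr1 was -0.301 (adjusted p = 0.0268). The other probe sets under an unadjusted p of 0.05 were Gab1 1417693_a_at (-0.13 ± 0.05) and Spire1 1455409_at and 1454962_at (-0.15 ± 0.05 and -0.20 ± 0.09).

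**Figure D4:**
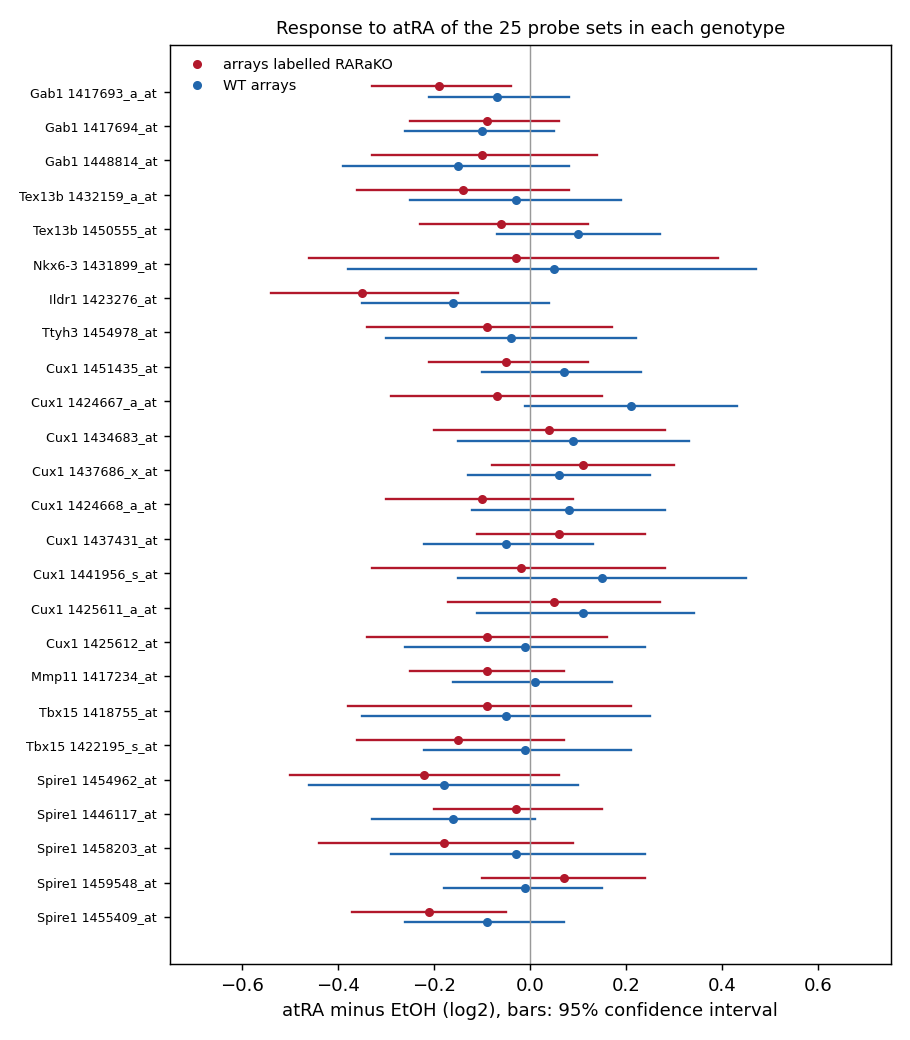
Response to atRA (atRA minus EtOH, log2) of the 25 probe sets, in the arrays labelled RARaKO (red) and in WT arrays (blue); points are estimates and bars are 95% confidence intervals. Most bars cross 0, the Ildr1 point in RARaKO lies farthest to the left at -0.35, and no probe set was called.

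Genes related to the 9 were then examined, from lists of relatives, partners and neighbours. Of 59 relatives (other Gab, Tex13, Nkx6, Ildr, Ttyh, Cux, matrix metalloproteinase, T-box and Spire or formin genes among them), 43 were measured by 83 probe sets, and 0 of them were called between the genotypes in either treatment (limma, smallest adjusted p = 0.0778 in atRA and 0.0845 in EtOH, where 3.12% and 3.01% of all probe sets were called). At an unadjusted p of 0.05 there were 17 and 8 of 83, against 17.9% and 15.3% of all probe sets, and over the alternatives 0 to 3 and 0 to 2 were called. The median difference of the relatives was 0.00 in atRA and -0.06 in EtOH, against 0.00 and -0.01 over all probe sets. Mmp9, a secreted gelatinase, rose with atRA when averaged over both genotypes (0.35 ± 0.07, adjusted p = 0.0199), a call lost without RARaKO EtOH set 2, WT EtOH set 2 or 4, or WT atRA set 3 or 4 (0.0521 to 0.0591).

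Around Gab1, 38 of 44 receptors, adaptors and effectors were measured, by 113 probe sets. In atRA 2 of the 113 were called lower in RARaKO and 0 higher, where 1.51% of all probe sets were called lower and 1.61% higher. In EtOH 1 was called lower and 2 higher, where 1.16% of all were called lower and 1.84% higher. These counts are near those shares, and over the alternatives 1 to 8 were called in atRA and 1 to 6 in EtOH. Fgfr4, a fibroblast growth factor receptor, read 0.17, 0.14 and 0.01 in RARaKO atRA, -0.43, -0.44 and -0.51 in RARaKO EtOH, 0.50, 0.56 and 0.68 in WT atRA, and -0.10, -0.07 and -0.01 in WT EtOH. Within each treatment its RARaKO arrays lay below its WT arrays, with differences of -0.47 ± 0.07 in atRA (adjusted p = 0.00246) and -0.40 ± 0.07 in EtOH (adjusted p = 0.0069). Fgfr1 was lower in atRA by 1436551_at (-0.35 ± 0.08, limma, adjusted p = 0.0299). In EtOH the receptor gene Kit was higher by 1452514_a_at (0.43 ± 0.09, adjusted p = 0.0226). Spred2, an inhibitor of Ras signalling, was higher in EtOH by 1436892_at (0.51 ± 0.11, adjusted p = 0.028). Another probe set of Kit, 1415900_a_at, was not called between the genotypes in either treatment. The call of Fgfr4 was kept in all 18 alternatives in each treatment. That of Fgfr1 was lost without RARaKO atRA set 3 or 4, or without any of the WT atRA arrays (limma, adjusted p from 0.0561 to 0.0983), and with only the 6 arrays compared (0.0712). Kit lost its call without any of the RARaKO EtOH arrays, or without WT EtOH set 3 or 4 (0.0559 to 0.105), and with quantile normalization (0.064). Spred2 lost it without RARaKO EtOH set 2 or 3, or WT EtOH set 3 or 4 (0.0924 to 0.129). Fgfr4, Kit by 1452514_a_at, and Pdgfrb were raised by atRA in both genotypes, Fgfr4 by 0.57 ± 0.07 in RARaKO and 0.64 ± 0.07 in WT. The response of Kit by 1415900_a_at was called in neither genotype. It was called only when averaged over both (0.40 ± 0.09, limma, adjusted p = 0.0408), and 6 of 17 alternatives kept that call. No difference between the responses in the 2 genotypes was called. In RARaKO the response of Kit by 1452514_a_at lost its call without any of the RARaKO arrays or WT EtOH set 3 (0.0529 to 0.177), and with quantile normalization (0.0779). That of Pdgfrb by 1417148_at lost it without any of the RARaKO EtOH arrays or RARaKO atRA set 3 or 4 (0.0523 to 0.115), and by 1436970_a_at without RARaKO EtOH set 2 or 3 (0.0681 and 0.091). In WT the call of 1417148_at was lost without any of the WT atRA arrays or WT EtOH set 2 or 3 (0.0613 to 0.0962). With only the 6 RARaKO arrays none of these responses in RARaKO was called (0.0735 for Fgfr4 and for Kit, 0.197 and 0.132 for Pdgfrb).

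Around Spire1, all 13 partners (formins, myosin V, Rab and actin genes) were measured by 26 probe sets and 0 were called between the genotypes (limma, smallest adjusted p = 0.089 in atRA and 0.282 in EtOH, with 1 and 3 at an unadjusted p of 0.05). Around Ildr1, 14 of 15 tight and tricellular junction genes were measured by 25 probe sets and 0 were called (smallest adjusted p = 0.113 and 0.0606, with 3 and 4 at an unadjusted p of 0.05). Over all probe sets 3.12% and 3.01% were called, and 17.9% and 15.3% passed the unadjusted threshold. Myo5a, a myosin that carries vesicles, fell with atRA in WT (-0.42 ± 0.08, adjusted p = 0.0471), a call that 6 of 18 alternatives kept and that was lost without any array other than RARaKO atRA sets 2 and 4 (0.061 to 0.201).

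The 3 nearest measured genes on each side of each of the 9 genes gave 54 neighbours with 105 probe sets. Between the genotypes 3 of the 105 were called in atRA and 2 in EtOH, where 3.12% and 3.01% of all probe sets were called. All were lower in RARaKO, where 1.51% and 1.16% of all probe sets were called lower. In each treatment 0 were called higher, where 1.61% and 1.84% of all were. The calls were of 1 neighbour of Mmp11 and 1 of Spire1, too few to be read against these shares. At an unadjusted p of 0.05 there were 13 and 15, against 17.9% and 15.3% of all probe sets. Over the alternatives 3 to 5 were called in atRA and 2 to 6 in EtOH, where leaving out RARaKO atRA set 2 gave 4 and array weights gave 6. Chchd10, which encodes a mitochondrial protein and lies beside Mmp11, read -0.26, -0.31 and -0.28 in RARaKO atRA, -0.25, -0.26 and -0.34 in RARaKO EtOH, 0.36, 0.33 and 0.37 in WT atRA, and 0.25, 0.31 and 0.32 in WT EtOH by 1436990_s_at. Its values had no overlap between the genotypes, and the differences were -0.64 ± 0.06 in atRA (adjusted p = 7.12e-05) and -0.58 ± 0.06 in EtOH (adjusted p = 0.000144). Its other probe set gave -0.59 ± 0.06 and -0.64 ± 0.06 (adjusted p = 0.000199 and 0.0001). Both are of the type that can match transcripts of several genes. Prelid3a, beside Spire1, read -0.52, -0.38 and -0.29 in RARaKO atRA and 0.03, 0.20 and 0.14 in WT atRA, a difference of -0.52 ± 0.08 by 1437707_at (limma, adjusted p = 0.0024). In EtOH this probe set was not called (-0.28 ± 0.08, adjusted p = 0.0693), and the gene's other probe set, 1425224_at, was called in neither treatment (-0.13 ± 0.07 in atRA and -0.16 ± 0.07 in EtOH, adjusted p = 0.336 and 0.289). For the other 7 genes no neighbour was called in the fit of all 12 arrays.

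**Figure D5:**
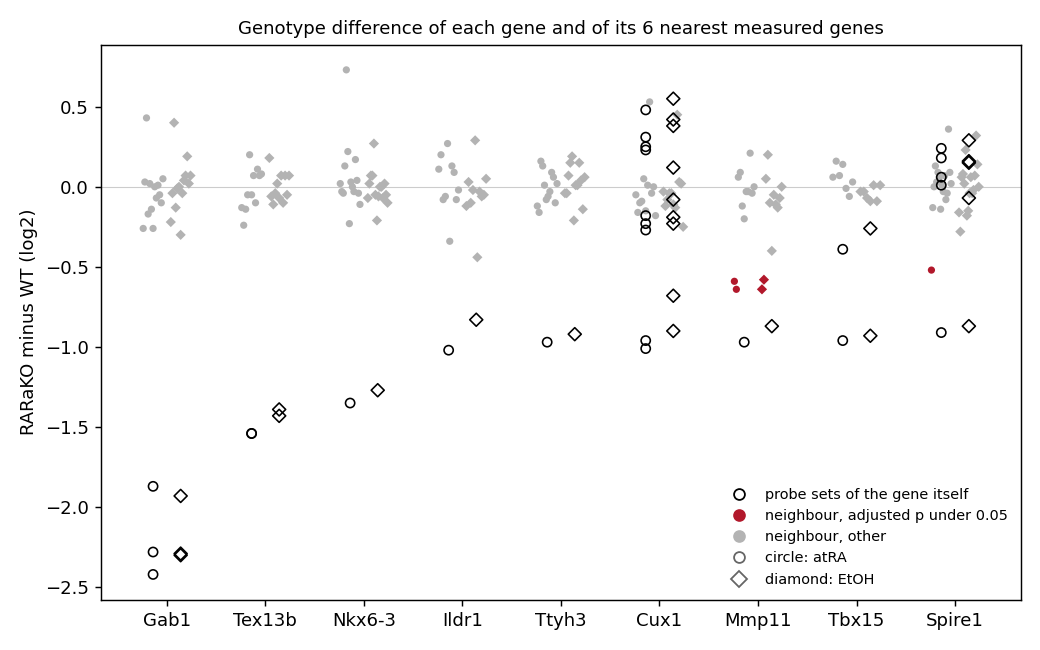
Genotype difference (RARaKO minus WT, log2) of each gene's own probe sets (open symbols) and of its 6 nearest measured genes (filled), with atRA as circles and EtOH as diamonds; red marks neighbours with an adjusted p under 0.05. Only Chchd10 beside Mmp11 and Prelid3a beside Spire1 are red.

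The probe sets most like each gene over the 12 arrays were found by Pearson's r among 30463 probe sets of other genes, which is a description since the arrays share their genotype. For Gab1 the closest were Rabl3 (r = 0.993) and Chchd10 (0.991). For Tex13b they were Chchd10 (0.994) and Exoc4 (0.981), and for Mmp11 they were Hmgcs1 (0.994), an enzyme of cholesterol synthesis, and Sumf1 (0.99). Hmgcs1 was thus near both Mmp11 and Tbx15 (0.978, after Eif4g3 with 0.986). Nkx6-3 was nearest to Spns1 and Cryz (0.98 each), Ildr1 to Asrgl1 (0.984) and Bst2 (0.982), and Ttyh3 to Rpa3 (0.988) and Ap1s2 (0.98). For Cux1 1451435_at the closest were Pcbp2 (0.992) and again Chchd10 (0.983), and for Spire1 1454962_at it was Btg2 (0.981), where these Cux1 and Spire1 probe sets were chosen after their values had been seen. The brightest probe set of Spire1 was nearest to Chmp4c (0.946), and that of Cux1 chosen by the rule, 1425612_at, to Cnot4 (0.973).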

How the data were processed

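The deposited values are log2 expression per probe set, made by the authors with GCRMA per the submitters' processing notes, which give no version. In the deposited table the median of each probe set was 0 (largest absolute median 7.02e-07), so the probe sets had been centred, a step absent from the labels. The log base is not stated and is taken as 2. The values' single-precision steps gave the level class used here (33.9% of probe sets at least 8 on every array, 64.0% from 4 to 8, 2.16% under 4). Of 37661 probe sets, 61 controls were left out. Symbols came from the platform annotation: 30488 probe sets had 1, 784 had several and 6328 had none.

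A single linear model with 4 group means, and without a block, was fitted to the 12 arrays with limma 3.58.1 in R 4.3.3 (8 residual degrees of freedom, 4.60 from the prior). Two-sided p-values were adjusted by Benjamini-Hochberg over 37600 probe sets and called under 0.05. The labels call the replicates only sets, so p-values reflect array-to-array spread that may be technical. The number of arrays limits the precision. On simulated data for the response in RARaKO, 97% of changes of 1 and 68% of changes of 0.5 were recovered, with 7 false calls. The simulated noise was independent between arrays, while arrays of the same set correlated here, so these rates need not hold for these data. Alternatives were a set block, leaving out each array, array weights, median and quantile scaling, a level minimum, robust eBayes, only the 6 arrays compared, and gene means. The genes, lists and rules were chosen with earlier results of these data known. The rule named every probe set of the 9 genes, called members of each list (at most 6), neighbours that were called, and the 2 closest probe sets by correlation. Where a gene had several probe sets, 1 was chosen by level class, then type, then identifier. Gene order came from RefSeq's gene table.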

Additional observations from a re-analysis of the deposited data

How the results depend on the processing

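By the rule used the set was not taken as a block (15 of 18 same-set correlations were over 0.1, lowest 0.0186). Arrays of a set still shared part of their deviation from the group means. The median correlation was 0.192 within a set and -0.11 between sets, and each of the 12 arrays correlated best with its own set. The tests above leave this sharing out. With the set as a replicate block the counts of called probe sets were 2344 (genotype in atRA), 1972 (genotype in EtOH), 167 (response in RARaKO) and 339 (response in WT), against 1173, 1131, 99 and 214. With only the 6 arrays compared the genotype in atRA gave 592 and the response in RARaKO 14. Array weights gave 2071 for the genotype in EtOH and 382 for the response in WT. Gene means gave 777 and 684 for the genotype in atRA and EtOH. A level of at least 8 gave 63 for the response in RARaKO and 380 for the mean response, against 603. Leaving out 1 array gave 532 to 1124 (genotype in atRA), 545 to 1426 (genotype in EtOH), 39 to 88 (response in RARaKO), 107 to 226 (response in WT) and 347 to 548 (mean response), and 0 for the difference of responses in every setting. For the 25 probe sets, 897 of 910 genotype values stayed within the spread of replicates and 13 moved, and quantile scaling took Gab1 to between -2.06 and -2.68. A change of sign in a difference near 0 could count as within the spread. The 13 probe sets with all RARaKO arrays below all WT arrays had 0 values above 0 over all settings, in either treatment. Against the Cux1 probe set chosen by the rule (0.476 in atRA, 0.555 in EtOH), the gene mean reversed to -0.155 and -0.067. Of 1340 response values 1339 kept their side of the threshold and Ildr1 without WT EtOH set 3 passed it. Of 25 calls among listed genes and neighbours, 14 held in every alternative and 11 were lost in at least 1. The cause of these shifts was not tested.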
